A study of Rattus norvegicus with 12 samples.

Results

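Interleukin 1 and tumour necrosis factor (TNF), together with the inhibitors of the transcription factor NF-kB that both cytokines induce, were followed as a group of 9 genes in brain RNA. The members were picked by symbol in the table of raw counts: the cytokines Il1a, Il1b and Tnf, the antagonist Il1rn, the receptors Il1r1 and Il1r2, the inhibitors Nfkbia and Tnfaip3, and Ptgs2. They make up 9 of the 31177 genes in the table, and all 9 were among the 18850 with enough counts to be tested. The 12 libraries fall into 3 groups of 4, named Sham, AD (a model of Alzheimer's disease) and AD-HFD (the same model with a high-fat diet), and the study set out to compare the brain transcriptome under the model and under added metabolic stress. Libraries are named here by group and number, as in AD-3. The study's text speaks of mice, while their organism is entered as Rattus norvegicus and rat gene identifiers are used in the table. Strain, age, sex, brain region, the way the model was made and the length of the diet are not in the labels, and a group on the diet without the model was not analysed here. The labels do not say that the libraries are from different animals, so the p-values measure only the spread between libraries, which may be technical.

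Interleukin 1 alpha (Il1a) and beta (Il1b) are cytokines that bind the signalling receptor Il1r1, which then recruits the accessory protein Il1rap. Their action is limited outside the cell by the receptor antagonist Il1rn and by Il1r2, a decoy receptor that binds ligand without signalling. Interleukin 1 and TNF both free NF-kB to enter the nucleus, where it switches on cytokine genes and also the genes of its own restraints: Nfkbia encodes the inhibitor that holds NF-kB in the cytoplasm, and Tnfaip3 a ubiquitin-editing enzyme that shuts down signalling upstream. Ptgs2, or cyclooxygenase 2, makes the precursor of prostaglandins and is induced by interleukin 1. In brain, microglia are a main source of interleukin 1 beta and TNF, while Ptgs2 is also made by excitatory neurons of the forebrain, where it follows neuronal activity.

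Promoter sequences of 8 of the 9 members were matched by symbol in a RefSeq table on the GRCr8 rat build; Il1r2 was not matched and was not searched. The build behind the counts is not given in the sources used here, and the coordinates belong to GRCr8 alone. The 250 bases before each gene's start were searched on both strands for the kB consensus, the DNA motif bound by NF-kB. It was found in 3 of the 8 promoters, against 6.33% of all 33469 promoters of the same length. These 3 are printed 5′ to 3′ on the gene's strand, with each match in capitals, because they carry, among the 8 searched, the motif of the factor the pathway acts through. The Nfkbia window is chr6:78597073-78597322 on the minus strand, that of Tnfaip3 is chr1:15543980-15544229 on the minus strand, and that of Il1r1 is chr9:50034133-50034382 on the plus strand.
Nfkbia: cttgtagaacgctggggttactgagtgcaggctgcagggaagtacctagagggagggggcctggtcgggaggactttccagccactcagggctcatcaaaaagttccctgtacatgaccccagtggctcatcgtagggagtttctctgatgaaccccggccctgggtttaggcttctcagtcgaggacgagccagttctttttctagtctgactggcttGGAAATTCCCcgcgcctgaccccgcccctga
Tnfaip3: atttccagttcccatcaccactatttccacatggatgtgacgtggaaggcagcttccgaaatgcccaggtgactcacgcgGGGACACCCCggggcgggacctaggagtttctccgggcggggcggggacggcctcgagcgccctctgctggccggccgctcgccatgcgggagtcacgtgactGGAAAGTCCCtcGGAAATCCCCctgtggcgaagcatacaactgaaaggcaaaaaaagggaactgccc
Il1r1: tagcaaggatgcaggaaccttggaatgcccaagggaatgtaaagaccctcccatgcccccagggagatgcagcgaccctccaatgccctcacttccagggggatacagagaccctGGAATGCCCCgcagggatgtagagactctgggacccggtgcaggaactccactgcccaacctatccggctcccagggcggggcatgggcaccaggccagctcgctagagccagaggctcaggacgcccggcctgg

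In Tnfaip3 the consensus matched at 3 places that do not overlap, 170 to 161, 67 to 58 and 55 to 46 bases before the start. Matches at 3 or more different positions, overlapping or not, were found in 0.123% of all promoters. Nfkbia had 1 match, 31 to 22 bases before the start, and Il1r1 had 1, 135 to 126 bases before it. The TATA box (TATAAA) stood in the windows of Il1a, Il1b, Il1rn and Tnf, 4 of 8 against 12.9% of all promoters, and the AP-1 motif (TGANTCA) in those of Il1a and Tnfaip3, 2 of 8 against 6.34%. The cyclic AMP response element (TGACGTCA) was found in 0 of the 8, against 1.59% of all promoters. A match is a run of letters and not a shown binding site, and the lack of one says only that these letters are not in this window.

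Total counts ran from 26668974 to 35351792 per library. Levels are in CPM, a library's counts scaled to its TMM-adjusted size; they are not corrected for gene length and so compare libraries, not genes. Differences are log2 fold changes ± SE from edgeR's quasi-likelihood test over all 18850 genes, and a gene was called at an adjusted p under 0.05. General neuron markers were present in every library (6 genes, sums of 1350 to 8892 CPM), but brain-region markers split the AD group. The cortical excitatory transporter gene Slc17a7 reached 828 CPM in AD-3 but only 4.29 to 99.5 CPM in the other 3 AD libraries, next to 1223 to 1704 CPM for Sham and 288 to 1257 CPM for AD-HFD. Tcf7l2, a thalamic transcription factor, was at 99.1 to 391 CPM in the same 3 AD libraries and at 5.17 to 14.1 CPM everywhere else. AD-3 therefore stands apart from its group, and in these markers it lies nearer to Sham and AD-HFD than the other 3 AD libraries do. The 8 thalamus markers summed to 129 CPM in AD-3 and 636 to 1900 CPM in the other 3 AD libraries. Their sums were 60.3 to 137 CPM in Sham and 83.7 to 112 CPM in AD-HFD. With all libraries, 6 of these 8 markers were called higher in AD against Sham, where 3.07% of all genes were. A difference of AD from another group therefore cannot be told apart from a difference in brain region, with AD-3 or without it. The calls of members and of other pathway genes in AD are given with and without AD-3.

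The members were highest in AD-3 and in the AD-HFD libraries. AD-3 exceeded all 4 Sham libraries for all 9 members, as did AD-HFD-1, AD-HFD-2 and AD-HFD-4, and AD-HFD-3 did so for 8 members, all but Il1a. The numbers for AD-1, AD-2 and AD-4 were 4, 3 and 5 members. The share of all genes for which a library exceeded every Sham library was not counted. These numbers therefore order the libraries and do not set the members apart from other genes. The highest of all 12 values fell in AD-HFD-4 for 5 members (Il1b, Il1r1, Il1r2, Nfkbia and Tnfaip3), in AD-3 for Il1a and Ptgs2, in AD-HFD-1 for Il1rn and in AD-HFD-2 for Tnf. AD-HFD-3 was the lowest library of the diet group for 7 members, the exceptions being Il1r2 and Ptgs2. In whole tissue, fewer cells of a type and less RNA per cell cannot be told apart.

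**Figure D1:**
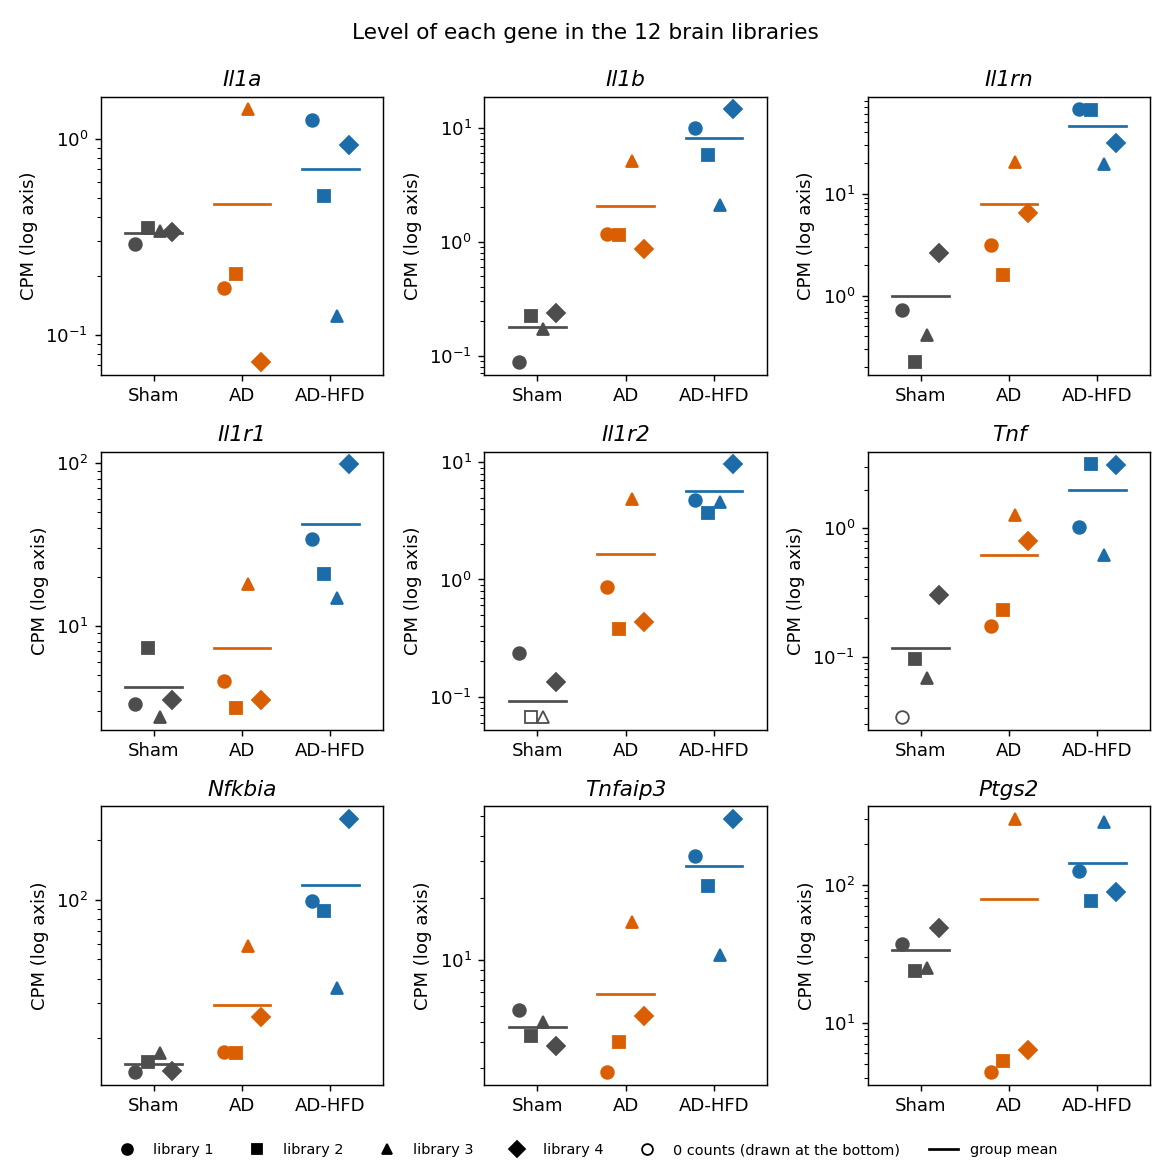
Level of each of the 9 genes in CPM on a log axis, by group, with the marker shape giving the library's number and a line at the group mean; open symbols at the bottom are libraries with 0 counts. AD-3 sits above the other 3 AD libraries in every panel, and for Ptgs2 it stood at 301 CPM against 4.399 to 6.39 CPM.

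Among the cytokines, Il1b had almost no counts in Sham and rose in both model groups. The Sham libraries stood at 0.0876, 0.224, 0.170 and 0.234 CPM, the AD libraries at 1.18, 1.14, 5.14 and 0.871 CPM and the AD-HFD libraries at 10.02, 5.80, 2.09 and 14.6 CPM, each in the order of their numbers. The Sham values rest on 3 to 7 counts per library. Every AD and AD-HFD library lay above every Sham library, while AD-3 lay inside the AD-HFD range. Against Sham, the log2 fold change of AD was 3.54 ± 0.871 (adjusted p = 0.0327) and that of AD-HFD was 5.49 ± 0.819 (adjusted p = 0.00194). The AD call was lost without AD-3 (log2 2.56, adjusted p = 0.0576) and without any 1 of the Sham libraries.

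Il1a, the sister cytokine, did not pass the test in any comparison. By library number, it was at 0.292, 0.351, 0.340 and 0.335 CPM in Sham, at 0.173, 0.204, 1.42 and 0.0726 CPM for AD and at 1.25, 0.510, 0.125 and 0.931 CPM for AD-HFD. Sham was the tightest group, and both others spread to either side of it. Counts per library were 2 to 46. Against Sham, the log2 fold changes were 0.54 ± 0.8288 for AD and 1.08 ± 0.785 for AD-HFD (adjusted p = 0.733 and 0.302), differences that were not detectable at these counts.

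The split between the 2 agonists differed between Sham and the models within each library, where scaling plays no part. Il1b made up 23.1%, 38.9%, 33.3% and 41.2% of the summed Il1a and Il1b counts in the 4 Sham libraries. Their exact binomial (Clopper-Pearson) 95% intervals span 5.04% to 67.1%, because only 13 to 18 counts were summed, and intervals cover counting error only. The share was 87.2%, 84.8%, 78.4% and 92.3% in the AD libraries and 88.9%, 91.9%, 94.4% and 94.0% in the AD-HFD libraries. Mean shares were 34.1% ± 8.06 for Sham, 85.7% ± 5.77 for AD and 92.3% ± 2.496 for AD-HFD (SD, n = 4 each). Neither model group overlapped Sham, and the lowest model value belonged to AD-3.

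**Figure D2:**
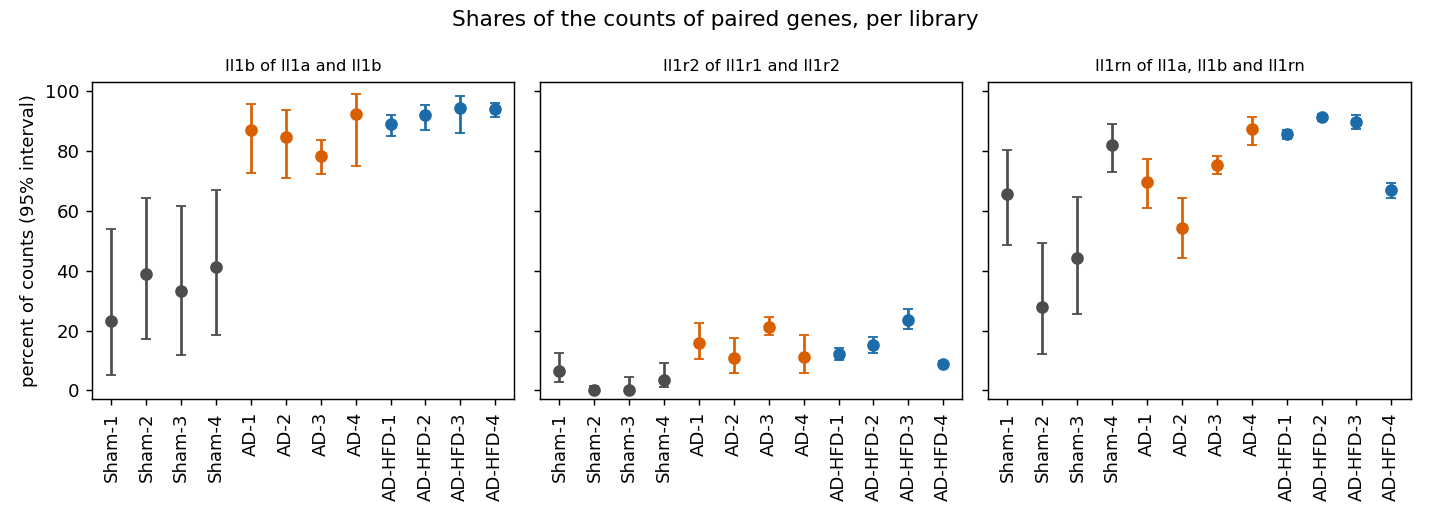
Percent of the counts in each library that fell on Il1b among Il1a and Il1b, on Il1r2 among the 2 receptors, and on Il1rn among Il1rn and the 2 agonists, with exact binomial 95% intervals. The Il1b share lay at 23.1% to 41.2% in Sham and at 78.4% or more in every AD and AD-HFD library.

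Tnf followed Il1b in direction at low counts, 0 to 99 per library. Levels from library 1 to 4 were 0, 0.0958, 0.0680 and 0.301 CPM among Sham, 0.173, 0.233, 1.26 and 0.798 CPM among AD and 1.02, 3.16, 0.625 and 3.09 CPM among AD-HFD. The count of 0 in Sham-1 allows a level of up to 0.0876 CPM (3 counts). AD-HFD lay wholly above Sham, whereas AD-1 and AD-2 lay within the Sham range. Tnf rose in AD-HFD against Sham by 4.08 ± 0.846 on the log2 scale (adjusted p = 0.00484), and its AD value, 2.41 ± 0.979, did not pass (adjusted p = 0.150), nor did the 1.75 found without AD-3 (adjusted p = 0.325).

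The antagonist Il1rn rose in AD-HFD about as much as Il1b. The Sham libraries stood at 0.730, 0.224, 0.408 and 2.61 CPM, the AD libraries at 3.12, 1.60, 20.2 and 6.49 CPM and the AD-HFD libraries at 66.9, 66.0, 19.5 and 31.4 CPM, each in the order of their numbers. Every AD-HFD library exceeded every Sham library, AD-3 sat at the lower edge of the AD-HFD range, and AD-2 fell below Sham-4. The rise of AD-HFD over Sham was 5.54 ± 0.916 on the log2 scale (adjusted p = 0.00309). The AD value was 2.99 ± 0.867 (adjusted p = 0.0621), and 1.90 without AD-3 (adjusted p = 0.129).

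Unlike the Il1b share, the share of Il1rn in the summed counts of Il1rn, Il1a and Il1b overlapped between all 3 groups. It ran over 28.0% to 82.1% in Sham, 54.5% to 87.3% in AD and 66.9% to 91.3% in AD-HFD. AD-HFD-4, the library with the most Il1b, had the lowest share of its group, with a 95% interval of 64.4% to 69.4%. The other AD-HFD libraries were at 85.6%, 91.3% and 89.8%, above that interval.

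Both receptors rose in AD-HFD, and the decoy also in AD. Il1r1, the signalling receptor, had counts in every library. By library number, it was at 3.30, 7.32, 2.76 and 3.52 CPM in Sham, at 4.61, 3.15, 18.0 and 3.48 CPM for AD and at 34.2, 20.7, 14.8 and 98.4 CPM for AD-HFD. The other 3 AD libraries lay within the Sham range, and AD-3 alone reached the AD-HFD range. Against Sham, the log2 fold change of Il1r1 was 0.79 ± 0.695 for AD (adjusted p = 0.522) and 3.31 ± 0.726 for AD-HFD (adjusted p = 0.00744). Without AD-3 the AD value turned to -0.18 (adjusted p = 0.890).

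Il1r2, the decoy receptor, had 8, 0, 0 and 4 counts in Sham-1 to Sham-4. Levels from library 1 to 4 were 0.234, 0, 0 and 0.134 CPM among Sham, 0.866, 0.379, 4.89 and 0.435 CPM among AD and 4.73, 3.67, 4.60 and 9.65 CPM among AD-HFD. The counts of 0 in Sham-2 and Sham-3 allow up to 0.0958 and 0.102 CPM. Both model groups lay above all Sham libraries. The rises over Sham were 4.06 ± 1.06 in AD (adjusted p = 0.0360) and 5.83 ± 0.969 in AD-HFD (adjusted p = 0.00230). The AD call was lost without AD-3 (log2 2.48, adjusted p = 0.0853) and without any 1 of the Sham libraries. As a share of the counts of both receptors, Il1r2 ran over 0% to 6.61% in Sham, 10.7% to 21.4% in AD and 8.93% to 23.7% in AD-HFD. Both model groups lay above Sham in this share and overlapped each other. The 95% interval of Sham-1, 2.90% to 12.6%, overlapped those of every model library except AD-3 and AD-HFD-3. That of Sham-4, 1.01% to 9.13%, overlapped those of AD-2 (5.85% to 17.7%), AD-4 (5.87% to 18.6%) and AD-HFD-4 (7.97% to 9.96%). Intervals of Sham-2 and Sham-3 reached 1.60% and 4.45%, below that of every model library.

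The 2 feedback inhibitors of NF-kB, whose promoters are printed above, both rose in AD-HFD. The Sham libraries stood at 13.5, 15.1, 16.9 and 13.6 CPM, the AD libraries at 17.0, 16.9, 58.7 and 25.7 CPM and the AD-HFD libraries at 98.96, 87.5, 35.9 and 256 CPM, each in the order of their numbers. The Sham libraries lay close together, AD-1 and AD-2 stood just above them, and AD-3 exceeded AD-HFD-3. Nfkbia rose in AD-HFD against Sham by 3.01 ± 0.561 on the log2 scale (adjusted p = 0.00417), and its AD value was 1.00 ± 0.530 (adjusted p = 0.276), or 0.42 without AD-3 (adjusted p = 0.621).

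For Tnfaip3, AD-HFD again lay wholly above Sham. By library number, it was at 5.73, 4.31, 5.04 and 3.85 CPM in Sham, at 2.88, 3.997, 15.2 and 5.33 CPM for AD and at 32.05, 22.9, 10.54 and 48.1 CPM for AD-HFD. As with Nfkbia, AD-HFD-4 was the highest library and AD-HFD-3 the lowest of the diet group. Tnfaip3 rose in AD-HFD against Sham by 2.58 ± 0.540 (adjusted p = 0.00618). Its AD value was 0.54 ± 0.528 (adjusted p = 0.575), or -0.22 without AD-3 (adjusted p = 0.788).

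Ptgs2 was the member with the widest split inside AD. Levels from library 1 to 4 were 37.3, 23.7, 25.1 and 48.6 CPM among Sham, 4.399, 5.25, 301 and 6.39 CPM among AD and 126, 76.6, 289 and 88.9 CPM among AD-HFD. The other 3 AD libraries lay below all Sham libraries and AD-3 above all other libraries, while AD-HFD lay wholly above Sham. With all libraries no comparison passed: the log2 fold change was 1.24 ± 1.15 for AD over Sham (adjusted p = 0.549), 2.11 ± 1.17 for AD-HFD over Sham (adjusted p = 0.180) and 0.87 ± 1.13 for AD-HFD over AD (adjusted p = 0.622). Without AD-3, Ptgs2 stood at -2.66 ± 0.482 for AD over Sham (adjusted p = 0.00582), a fall, in a fit where 6.36% of all genes were called lower. In that fit it rose by 2.11 ± 0.409 in AD-HFD over Sham (adjusted p = 0.00346) and by 4.76 ± 0.529 over AD (adjusted p = 0.000492). With AD-3 as the lone AD library, assumed to vary like the other groups, the AD value was 3.15 (adjusted p = 0.0188), the opposite direction.

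Cortical excitatory neuron markers were low in the same 3 AD libraries as Ptgs2. Within AD-HFD both were highest in AD-HFD-3, but the position of that group against Sham differed. Of 9 listed, 7 were in the table, and they summed to 1621 to 2204 CPM in Sham, 983 CPM in AD-3, 37.4 to 144 CPM in the other 3 AD libraries and 336 to 1586 CPM in AD-HFD. All AD-HFD sums thus lay below all Sham sums, while Ptgs2 lay above. Set against Sham, activity-dependent genes such as Fos and Arc, which neurons switch on when they fire, split the libraries as Ptgs2 did. AD-3 and AD-HFD lay above Sham, and the other 3 AD libraries below it. The 9 of 10 listed that were in the table summed to 381 to 612 CPM in Sham and 706 CPM in AD-3. Sums were 77.3 to 308 CPM in the other 3 AD libraries and 1035 to 2086 CPM in AD-HFD. AD-3 thus lay below every AD-HFD library in this sum but above them all in Ptgs2. The sum was highest in AD-HFD-4, where general neuron markers were lowest, and Ptgs2 within the diet group in AD-HFD-3. Of the 9 activity-dependent genes, 5 were called higher and 0 lower in AD-HFD against Sham, where 19.7% of all genes were higher and 12.9% lower. In AD against Sham 0 were higher and 1 lower, where 3.07% of all genes were higher and 3.16% lower. The part of either list in the Ptgs2 result was not tested.

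In AD against Sham, 2 of the 9 members (Il1b and Il1r2) were called, both higher, where 3.07% of all genes were called higher and 3.16% lower. For 3 members, Il1b, Il1r2 and Nfkbia, all AD libraries exceeded all Sham libraries, as they did for 10.3% of all genes. All 9 log2 fold changes were above 0, with a median of 1.24 against 0.06 over all genes tested. Without AD-3 the signs of Il1a, Il1r1, Tnfaip3 and Ptgs2 turned, and Ptgs2, lower, was the 1 member called. By limma voom no member was called (adjusted p of Il1b = 0.188), while DESeq2 called Il1rn as well, where 7.87% of all genes were called higher.

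In AD-HFD against Sham, 7 of the 9 members were called and all 7 were higher, where 19.7% of all genes were called higher and 12.9% lower. Il1a and Ptgs2 did not pass. For 8 members, all but Il1a, every AD-HFD library exceeded every Sham library, as for 18.9% of all genes. The median log2 fold change of the 9 was 3.31, against 0.03 over all genes, and among the members those of Il1r2, Il1rn and Il1b were largest. The same 7 members were called under each of the 24 alternatives tried, and Ptgs2 joined them under 3. The 2 comparisons with Sham share the Sham libraries, so their values stand side by side and are not separate evidence.

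In AD-HFD against AD, which compares the diet within the model, no member was called by edgeR's quasi-likelihood test, where 0.0106% of all genes were called higher and 0% lower. At an unadjusted p under 0.05, 7 members passed, as did 30.5% of all genes in either direction. At an adjusted p under 0.1, 6 did, all higher, as did 10.4% of all genes. All 9 log2 fold changes were above 0 (median 1.95, against 0.04 over all genes). Those of Il1rn, Il1r1 and Il1b were 2.55 ± 0.762, 2.52 ± 0.696 and 1.95 ± 0.597 (adjusted p = 0.0693, 0.0623 and 0.0703). The inhibitors Tnfaip3 and Nfkbia stood at 2.05 ± 0.526 and 2.01 ± 0.538 (adjusted p = 0.0605 and 0.0614). Il1r2 and Tnf stood at 1.76 ± 0.652 and 1.67 ± 0.640 (adjusted p = 0.0955 and 0.105), and Il1a at 0.54 ± 0.738 (adjusted p = 0.642). The groups overlapped for all 9 members, and 2.72% of all genes had every AD-HFD library above every AD library. DESeq2 called 5 members higher, Il1b, Il1r1, Il1rn, Nfkbia and Tnfaip3, and with them 9.34% of all genes. Limma voom called no member and 2 of all 18850 genes.

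The diet comparison turned on single libraries. Without AD-3 all 9 members were called higher in AD-HFD than in AD, where 18.0% of all genes were called higher, with log2 fold changes from 2.15 ± 0.679 for Il1a to 4.76 ± 0.529 for Ptgs2. The AD libraries in that fit had cortical excitatory marker sums of 37.4 to 144 CPM, against 336 to 1586 CPM in AD-HFD. Diet and brain region therefore cannot be told apart in that fit either. Without AD-HFD-3, 6 members were called higher, Il1b, Il1r1, Il1rn, Nfkbia, Tnf and Tnfaip3, where 14.8% of all genes were. No member was called when any 1 of the other 10 libraries was left out. With AD-3 as the lone AD library no member was called either, and Il1a and Ptgs2 stood at -1.02 and -1.04 (adjusted p = 0.722 and 0.722).

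**Figure D3:**
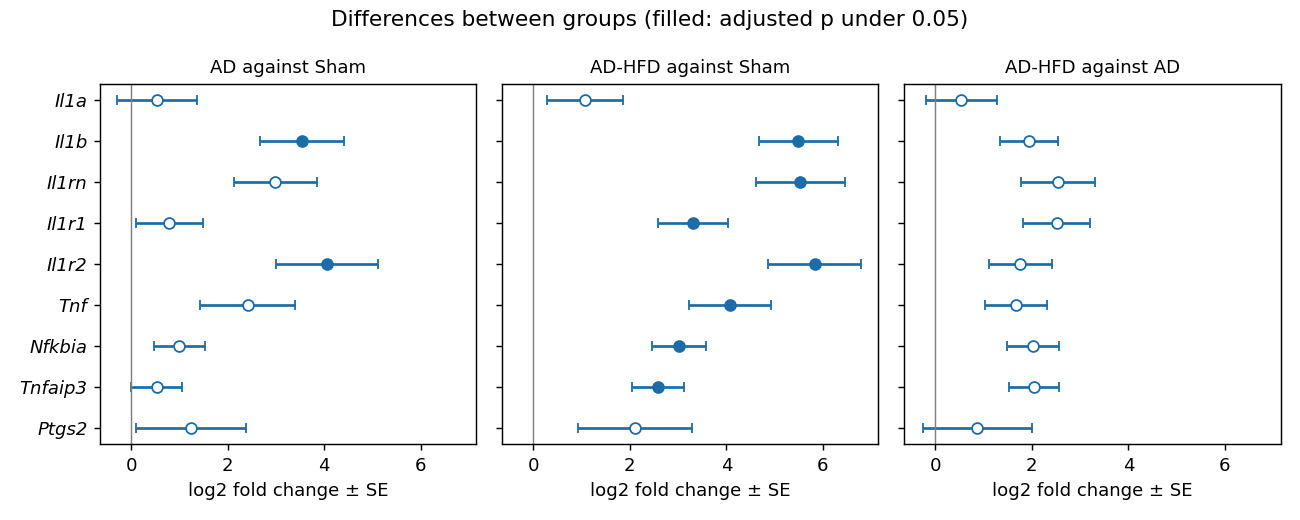
Log2 fold change ± SE of the 9 genes in the 3 comparisons, with filled points for an adjusted p under 0.05. From left to right, 2, 7 and 0 of the 9 points are filled.

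**Figure D4:**
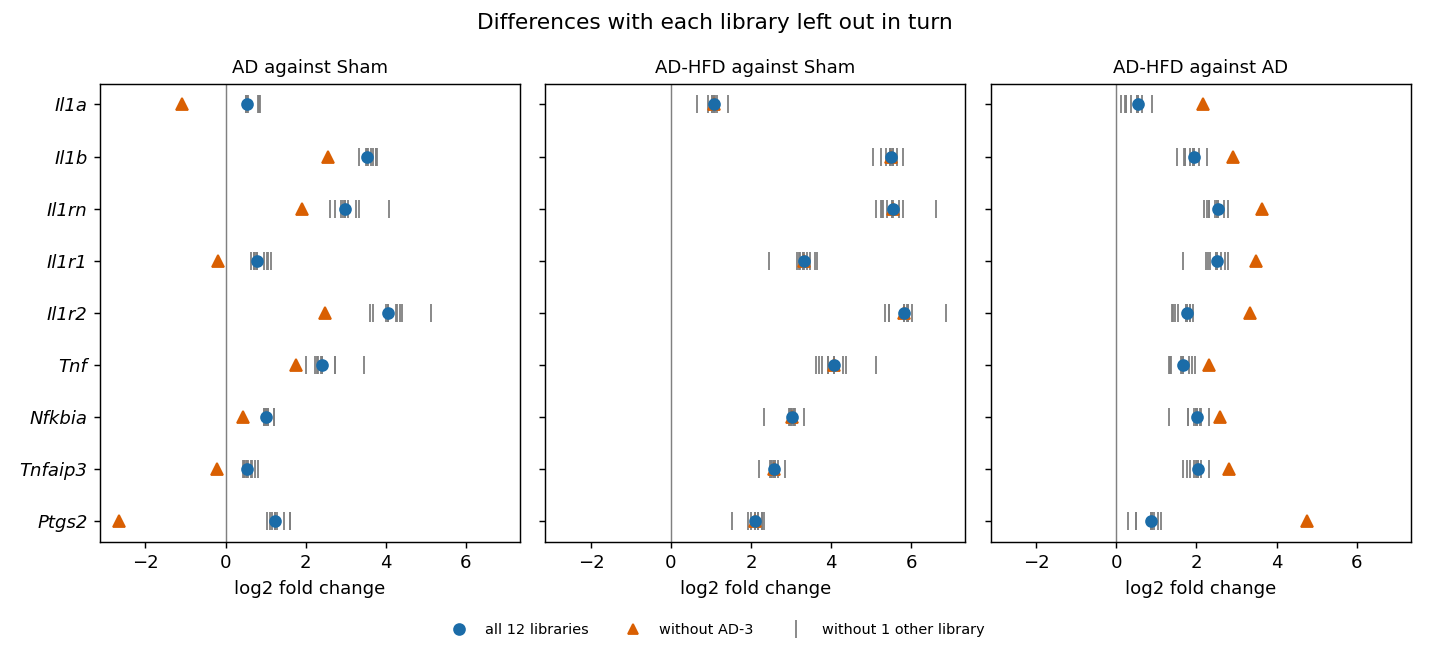
Log2 fold change of the 9 genes with all 12 libraries (blue), without AD-3 (orange triangles) and without each of the other 11 libraries (grey ticks). Leaving out AD-3 moved Ptgs2 from 1.24 to -2.66 for AD against Sham and from 0.87 to 4.76 in AD-HFD against AD.

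Markers of cells that can make these RNAs also differed between the groups. The 10 microglial markers, all in the table, summed to 239 to 281 CPM in Sham, 291 to 372 CPM in AD and 311 to 523 CPM in AD-HFD, with Siglech at 0 in Sham and AD. Of the 9 tested, 4 were called higher and 2 lower in AD-HFD against Sham, where 19.7% of all genes were higher and 12.9% lower. Of 11 markers of blood leukocytes and border macrophages, 10 were in the table, and they summed to 39.6 to 55.2 CPM in Sham, 82.3 to 216 CPM in AD and 141 to 1089 CPM in AD-HFD. Of the 8 tested, 7 were called higher in AD-HFD and 4 in AD, each against Sham, where 19.7% and 3.07% of all genes were. AD-HFD-4, where Il1b, Il1r1, Il1r2, Nfkbia and Tnfaip3 were highest, had the highest leukocyte sum, and AD-HFD-3 the lowest of the diet group. Within AD the highest was AD-3, 216 CPM against 82.3 to 120.2 CPM.

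Red blood cell and endothelial markers were also highest in AD-3 within AD and in AD-HFD-4 within AD-HFD. The 5 red cell markers in the table, of 7 listed, summed to 159 to 361 CPM in Sham, 271 to 611 CPM in AD and 253 to 4207 CPM in AD-HFD. The 6 endothelial markers in the table, of 7 listed, summed to 197 to 216 CPM in Sham, 303 to 745 CPM in AD and 543 to 1832 CPM in AD-HFD, with Cldn5 at 0 in Sham. General neuron markers were lowest in AD-HFD-4, 1350 CPM, and within the diet group highest in AD-HFD-3, 5918 CPM, below the 6942 to 8892 CPM of Sham. In AD-HFD against Sham, 5 of 5 red cell and 5 of 5 endothelial markers tested were called higher, where 19.7% of all genes were. Of 6 general neuron markers, 4 were called lower there, where 12.9% of all genes were. None of these lists held a call in AD against Sham, where 3.07% of all genes were higher and 3.16% lower. The 7 leptomeningeal markers, genes of the membranes around the brain, summed to 42.1 to 143 CPM in Sham, 31.9 to 78.9 CPM in AD and 86.5 to 497 CPM in AD-HFD, highest in AD-HFD-4 and lowest of the diet group in AD-HFD-3. Of these 7, 4 were called higher in AD-HFD against Sham and 0 in AD, where 19.7% and 3.07% of all genes were. The 7 choroid plexus markers split libraries within groups, with sums of 4607 CPM for Sham-2, 4517 CPM for Sham-3, 10428 CPM for AD-HFD-1, 553 CPM for AD-HFD-2 and at most 31.4 CPM elsewhere, and 0 of them were called in any comparison. The part of these cell types in the differences of the 9 members was not tested.

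A list of 91 other genes of the same pathways was counted beside the members, of which 89 were in the table and 81 were tested. Against Sham, 8 were called higher and 0 lower in AD (median log2 fold change 0.63), and 55 higher and 2 lower in AD-HFD (median 1.45). In AD-HFD against AD none of the 81 was called by edgeR's quasi-likelihood test (median 0.93), and 54 passed an unadjusted p under 0.05, against 30.5% of all genes. The shares of all genes called are those given for the members. Without AD-3, a fit of the list added after the data were seen, 82 were tested. In AD against Sham 7 were then called higher, where 5.72% of all genes were, and 1 lower, and 6 of these 8 were also called with all libraries. In AD-HFD against AD, 53 were then called higher and 1 lower, where 18.0% of all genes were higher and 12.3% lower. In this fit too, diet and brain region cannot be told apart.

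On the interleukin 1 side, 16 of 27 genes tested rose in AD-HFD against Sham and 3 in AD against Sham, with 0 lower in either. Nlrp3, the sensor of the inflammasome that activates the interleukin 1 protease, stood at 1.77 ± 0.198 CPM in Sham, 4.75 ± 1.33 CPM in AD and 9.40 ± 4.49 CPM in AD-HFD (SD, n = 4 each). It rose over Sham by 2.41 ± 0.362 in AD-HFD (adjusted p = 0.00232) and 1.43 ± 0.363 in AD (adjusted p = 0.0403). Casp4, an inflammatory caspase, and Il1rap, the co-receptor of Il1r1, were the other two that rose in AD (1.48 ± 0.386 and 0.87 ± 0.232, adjusted p = 0.0442 and 0.0472). Without AD-3, Casp4 kept its AD call (1.48, adjusted p = 0.0442), while Nlrp3 (1.27, adjusted p = 0.05395) and Il1rap (0.63, adjusted p = 0.0598) lost theirs. In AD-HFD, Casp4 and Il1rap rose by 2.75 ± 0.389 and 1.25 ± 0.233. Casp1, the protease that cuts the interleukin 1 beta precursor, rose in AD-HFD (2.94 ± 0.588, adjusted p = 0.00520) and was at 0.59 ± 0.586 in AD (adjusted p = 0.577). Irak4, a kinase that acts below the receptor, rose in AD-HFD by 1.97 ± 0.288 (adjusted p = 0.00212).

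On the TNF side, 12 of 17 genes tested rose in AD-HFD against Sham and 0 were called in AD, where 6 passed an unadjusted p under 0.05 in edgeR's test, as did 24.0% of all genes. Without AD-3 the 1 gene called there was Cflar, an inhibitor of caspase 8, which fell in AD (-0.67, adjusted p = 0.0391) and stood at 0.62 with all libraries (adjusted p = 0.537); it and Alox5, on the prostaglandin side, were chosen after their values were seen. The main TNF receptor Tnfrsf1a went from 13.0 ± 2.62 CPM in Sham to 111 ± 68.6 CPM in AD-HFD (3.09 ± 0.498 on the log2 scale, adjusted p = 0.00289). The second receptor, Tnfrsf1b, went from 1.42 ± 0.466 to 12.8 ± 11.5 CPM (3.16 ± 0.648, adjusted p = 0.00566). Their AD values were 1.38 ± 0.472 and 1.03 ± 0.655 (adjusted p = 0.101 and 0.369).

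All 8 NF-kB subunits and kinases tested rose in AD-HFD against Sham, and 0 were called in AD, where 3 passed an unadjusted p under 0.05 in edgeR's test, against the same 24.0%. The subunit genes Rela and Nfkb1 rose by 1.79 ± 0.346 and 1.54 ± 0.288 (adjusted p = 0.00471 and 0.00417). Rela went from 26.2 ± 2.70 CPM in Sham to 90.4 ± 46.0 CPM in AD-HFD, and Nfkb1 from 25.9 ± 1.75 to 75.5 ± 32.9 CPM. Their AD values were 0.63 ± 0.339 and 0.55 ± 0.283 (adjusted p = 0.282 and 0.258). Among 15 other inhibitors and feedback genes tested, 9 rose and 1 fell in AD-HFD against Sham, and 2 rose in AD. Those 2 were Bcl3, a nuclear member of the inhibitor family (4.195 ± 0.885, adjusted p = 0.0205), and Zfp36, which destabilises cytokine messenger RNAs including that of Tnf (2.81 ± 0.612, adjusted p = 0.0227). Zfp36 stood at 4.76 ± 0.804 CPM in Sham, 33.3 ± 33.2 CPM in AD and 101 ± 40.0 CPM in AD-HFD, where it rose by 4.403 ± 0.650. Without AD-3 both AD calls held at smaller values, 2.91 for Bcl3 (adjusted p = 0.0156) and 1.88 for Zfp36 (adjusted p = 0.0180). Cyld, a deubiquitinase that restrains NF-kB signalling, was the 1 that fell in AD-HFD (-0.92 ± 0.277, adjusted p = 0.0265).

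The list for the prostaglandin side, where Ptgs2 acts, also holds Alox5 and Alox5ap, which serve 5-lipoxygenase and not cyclooxygenase. Of its 14 genes tested, 10 rose and 1 fell in AD-HFD against Sham, and 3 rose in AD. The 3 were Tbxas1, the thromboxane synthase (2.76 ± 0.494), Alox5ap, which presents arachidonic acid to 5-lipoxygenase (1.80 ± 0.381), and Ptger2, a prostaglandin E2 receptor (1.67 ± 0.400), at adjusted p of 0.0106, 0.0205 and 0.0325. Without AD-3 they stood at 2.54, 1.81 and 1.32 (adjusted p = 0.0101, 0.0180 and 0.0408), and Alox5, the 5-lipoxygenase gene, was called too (1.31, adjusted p = 0.0434). Tbxas1, Alox5ap and Ptger2 also rose in AD-HFD, by 3.68 ± 0.493, 2.57 ± 0.383 and 2.47 ± 0.392. Ptges2, one of the prostaglandin E synthases, fell in AD-HFD (-0.49 ± 0.147, adjusted p = 0.0253), from 48.5 ± 4.45 to 34.4 ± 5.97 CPM. Ptges, the inducible synthase that works with Ptgs2, was singled out after its values were seen: it rose by 5.91 ± 0.990 in AD-HFD (adjusted p = 0.00319), from 0.599 ± 0.109 to 36.2 ± 38.0 CPM.

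**Figure D5:**
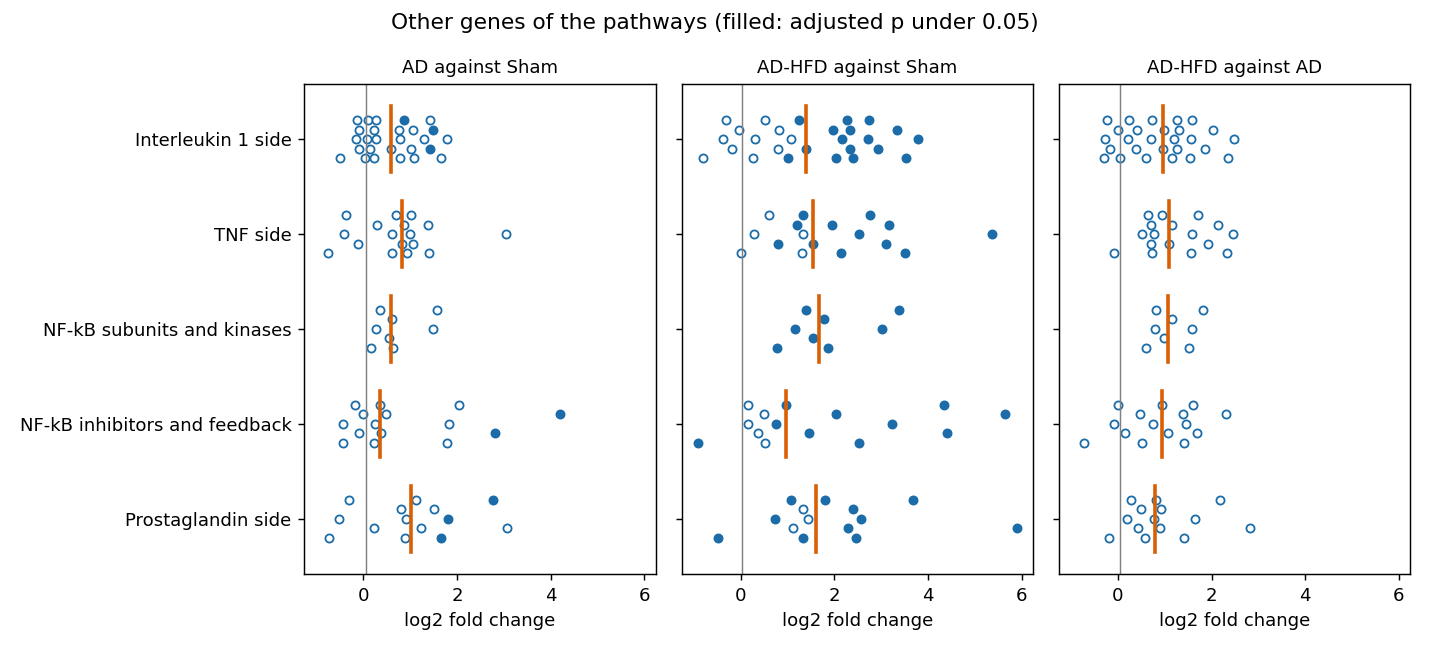
Log2 fold changes of the 81 other pathway genes tested, by side of the pathway and comparison, with filled points for an adjusted p under 0.05, an orange bar at each list's median and a grey line at the median of all genes. In AD-HFD against Sham all 8 NF-kB subunits and kinases are filled and lie to the right of the line.

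The genes whose profile over the 12 libraries lay closest to a member were found among 13168 candidates by the mean absolute difference of log2 CPM after each gene was centred. For Nfkbia they were Tax1bp3, Lyz2 and Lamc1, at mean differences of 0.115 to 0.164 log2 units, while Nfkbia itself spanned 4.23. For Tnfaip3 they were Mall, Sla and Pawr (0.229 to 0.247, of a span of 4.03), and for Il1r1 Tlr8, Flt4 and Igfbp3 (0.291 to 0.310, of 5.13). Il1b lay nearest to Lilrb2, Fgl2 and Gsap (0.335 to 0.398, of 6.59), and Tnf to Il15ra, Cebpd and Cebpb (0.376 to 0.407, of 5.64). The matches were looser for Il1rn, with Ccl4, Cxcl3 and Cebpd (0.613 to 0.750, of 7.86), and for Il1r2, with Procr, Osmr and Trem1 (0.590 to 0.602, of 7.23). For Il1a, whose counts were few, they were Tmem71, Ndc80 and Gstcd (0.393 to 0.404, of 3.43).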

How the data were processed

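The authors deposited 1 table of raw read counts, with genes down and the 12 brain libraries across. FastQC and Trimmomatic were used, per the submitters' processing notes. RNA was extracted with TRIzol, per the labels' protocols. The aligner, counter, strand setting, build and annotation are not given in the sources used here; reads of overlapping or antisense genes therefore cannot be told apart.

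Groups and numbers were read from the library names. With edgeR 4.0.16 (R 4.3.3), filterByExpr kept 18850 of 31177 genes, TMM set the scaling, and 1 mean per group was fitted to all 12 libraries by the quasi-likelihood method, with Benjamini-Hochberg adjustment over every gene tested. The SE is the size of the log2 fold change over the square root of F, and log2 CPM used a prior count of 2. No 2 libraries of a group agreed within sampling noise (lowest chi-square per gene 18.7). The fit was also run on simulated data, and the outcome is not reported here. Changes were planted only in genes above a set mean count, and no library was set apart as AD-3 is.

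Members, lists and rules were chosen with earlier results of these data known. Named genes are the members, the pathway genes called (up to 6 per comparison and direction, by smallest p), Il1rap, Tnfrsf1a, Tnfrsf1b, Nfkb1, Rela and Casp1, the 3 nearest genes of each member with a mean of at least 1 CPM (those of Ptgs2 are not reported here), and markers. Alternatives were DESeq2 1.42.0, limma voom (limma 3.58.1), the legacy quasi-likelihood method, other scalings, filters and thresholds, a replicate block, fits to 2 groups alone, and leaving libraries out. Motifs were searched with Python 3.11.15.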

Additional observations from a re-analysis of the deposited data

Results flagged for a closer look

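In each group of 4 libraries, the highest or lowest was singled out when its gap to the nearest other exceeded the Dixon 95% limit for 4 samples, which chance does in about 1 in 20 groups. Of 27 groups (9 members in 3 groups), 6 held such a library. AD-3 was the highest library in 5 of them: Il1a at 1.42 CPM, Il1b at 5.14 CPM, Il1r1 at 18.0 CPM, Il1r2 at 4.89 CPM and Ptgs2 at 301 CPM. The other was Il1r1 in Sham-2, at 7.32 CPM against 2.76 to 3.52 CPM in the rest of Sham. AD-3 also differed from the other 3 AD libraries in Slc17a7 and Tcf7l2.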

How the results depend on the processing

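Over 24 alternatives, 581 of 644 values of single members kept their direction and their side of the threshold, 15 lost the call, 39 gained it and 9 turned sign. Low counts (Il1a, and Il1b, Il1r2 and Tnf in Sham) and 4 libraries per group limit the precision. The causes of the changes below were not tested.

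In AD against Sham, 1174 genes were called, against 2343 at an adjusted p under 0.1, 2600 by DESeq2, 2363 with only the 2 groups, 2801 without both AD-HFD-4 and AD-HFD-3, and 302 to 2329 when 1 library was left out (lowest without Sham-1, highest without AD-3; over 1.5 times apart from the full count without any 1 Sham or AD library, AD-HFD-3 or AD-HFD-4). Of the members, 2 were called, against 0 by limma voom, 1 by the legacy method, 4 with AD-3 as the lone AD library, and 0 to 3 when 1 library was left out. The sign turned for Il1a (-0.30) and Ptgs2 (-1.11) by limma voom. Leaving out 1 library gave log2 values of -1.08 to 0.87 for Il1a, -0.18 to 1.15 for Il1r1, -0.22 to 0.80 for Tnfaip3 and -2.66 to 1.62 for Ptgs2, each lowest and below 0 without AD-3.

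In AD-HFD against Sham, 6162 genes were called, and 3514 to 8615 when 1 library was left out (lowest without Sham-1, 3710 without Sham-4, 3948 without AD-HFD-4, highest without AD-HFD-3). In AD-HFD against AD, 2 genes were called, against 3422 at an adjusted p under 0.1, 3310 by DESeq2, 0 with only the 2 groups, 0 with AD-3 as the lone AD library, 1896 without both AD-HFD-4 and AD-HFD-3, and 0 to 5841 when 1 library was left out (highest without AD-3, 5321 without AD-HFD-3, at most 4 without any other). Of the members, 0 were called, against 6, 5, 0, 0, 3 and 0 to 9 in the same order. Of the other pathway genes, 0 were called in AD-HFD against AD with all libraries and 54 without AD-3, an alternative chosen after seeing the data. With AD-3 as the lone AD library, Il1a turned to -1.02 and Ptgs2 to -1.04.

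Libraries of the same number did not deviate together (correlations of -0.32 to 0.0947 over 12 pairs, 0 over 0.1, 2 best with their own number). With the replicate block, 851 genes were called for AD over Sham and 5 for AD-HFD over AD. With that block, 0 members were called for AD over Sham, 7 for AD-HFD over Sham and 0 for AD-HFD over AD, and Ptgs2 stood at -1.16 in AD against Sham.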
